A study of Mus musculus with 5 samples.

Results

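Pi16+ fibroblasts were the largest fibroblast group in 2 single-cell libraries that had been prepared as T cells of doxorubicin (DOX) treated 4T1 mammary tumors. A cell barcode was kept when it had at least 500 detected genes and at most 10% of its unique molecular identifiers (UMIs, the count of distinct captured transcripts) in mitochondrial genes. A kept barcode was a Pi16+ fibroblast when it had UMIs of at least 3 of the 6 genes Col1a1, Col1a2, Col3a1, Dcn, Lum and Pdgfra, at least 1 Pi16 UMI, no UMI of Ptprc (the pan-leukocyte antigen CD45) or Epcam (an epithelial adhesion molecule), and not both Acta2 and Tagln at 3 UMIs or more. This gave 1154 of the 6810 kept barcodes, 655 from the sensitive and 499 from the resistant library. The cells were thus chosen by their measured UMIs of these genes, whose levels are given as a description only.

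Fibroblasts build and remodel the collagen matrix of a tissue. Those that express Pi16, a secreted or membrane-bound protein of the CAP family, together with Dpp4, Cd34 and Ly6c1, lie in the adventitia around vessels and in fascia of many mouse organs, and are regarded as a resting, progenitor-like pool. Tumor fibroblasts that take on Acta2 and Tagln, which encode smooth muscle actin and transgelin, are contractile and are called myofibroblasts.

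The series held 5 droplet libraries of 4T1 tumors, 3 of whole tumor and 2 enriched for T cells, and asked how tumors that respond to DOX differ from those that do not. Tumors came from the 4T1-Thy1.1 line, used to model triple negative breast cancer in mice, grown in the mammary fat pad of female BALB/c mice, labelled as 12 weeks old. Both T cell libraries came from mice given DOX intravenously at 5 mg/kg for 3 doses, 3 days apart, and differed in the label of the tumors as sensitive or resistant. In each, cells of 3 tumors were pooled after magnetic depletion of other cells, with no record of which cell came from which tumor. Each group is therefore 1 library with no replicate, no untreated T cell library was analysed here, and a difference between the libraries cannot be told apart from one between pools or preparations. The depletion, which targeted immune and cancer cells, also sets how many fibroblasts remained, so shares describe these preparations and not the tumors.

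The sensitive library held 3949 barcodes and 31690845 UMIs and the resistant library 6116 barcodes and 35908799 UMIs. They stood apart in mitochondrial content. Of the barcodes in all, 266 and 1248 had under 500 genes. Of the rest, 123 sensitive and 1618 resistant barcodes were over the limit of 10%, and 3560 and 3250 barcodes were kept. The libraries shared 31 barcode sequences, 18 of them among kept barcodes, and none was a Pi16+ fibroblast in both. Depth was alike in the cells described here, and the median Pi16+ fibroblast had 12626 UMIs over 3399 genes in the sensitive library and 12839 over 3335 in the resistant one, while the median mitochondrial share was 1.89% and 3.32%. Levels below are in counts per 1000000 (CPM), the UMIs of a gene summed over the cells of a group in a library and divided by all their UMIs, and ratios are sensitive over resistant unless another direction is named. All intervals are at 95% and cover counting error only.

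Pi16+ fibroblasts made up 18.4% of kept barcodes in the sensitive library (655 of 3560, exact interval 17.1 to 19.7%) and 15.4% in the resistant library (499 of 3250, 14.1 to 16.6%), a ratio of 1.20 (1.08 to 1.33). The order of these shares followed the mitochondrial limit. With a limit of 5% the shares were 19.4% and 23.4%, a ratio of 0.830, and with a limit of 20% they were 18.1% and 12.2%, a ratio of 1.48. The number of Pi16+ fibroblasts moved less than the number of kept barcodes, from 389 to 533 in the resistant library while its kept barcodes went from 1660 to 4372. No order of the 2 libraries in Pi16+ fibroblast abundance held across these limits.

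Among fibroblasts without a contractile profile, nearly all had a Pi16 UMI. The share was 90.5% in the sensitive library (655 of 724, 88.1 to 92.5%) and 97.7% in the resistant library (499 of 511, 95.9 to 98.8%). Since a share of cells with a UMI rises with depth, each cell was also reduced to 3000 of its UMIs, drawn at random, and 70 and 17 shallower cells were left out. After thinning 85.6% of 654 cells (82.7 to 88.2%) and 93.3% of 494 cells (90.7 to 95.4%) had Pi16, a ratio of 0.918 (0.882 to 0.954). The same share was 30.1% and 30.6% in contractile fibroblasts, and 2.90% and 5.46% in cells with Ptprc or Epcam, most of which should lack Pi16. Among these are the 34 and 66 cells that the rule left out for a Ptprc UMI alone, and free RNA and mixed droplets were not measured. Median depth before thinning was 4484.5 and 5322 UMIs in those cells. Pi16 itself was at a median of 24 UMIs per cell in sensitive and 28 in resistant cells, with a middle range of 9 to 51 and 12 to 55 and maxima of 427 and 683.

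Cells at the edge of the rule differed in number between the libraries. Just outside it, 69 cells from the sensitive library and 12 from the resistant one met every other condition with no Pi16 UMI, and just inside it 30 and 7 cells had a single one. Of the 6 fibroblast genes, 508 of 655 and 395 of 499 cells had all 6, 4 cells and 1 cell had only 3, and 1 cell and 2 cells were left out with 2. A Ptprc UMI left out 34 and 66 cells that met the rest of the rule, and an Epcam UMI left out 3 and 13. In the whole-tumor libraries, with medians of 1438.5 to 2682 UMIs per barcode before filters, the same rule found 5 of 354 kept barcodes in the control, 0 of 168 in the sensitive (a limit of 3 counts allows a share of up to 1.79%, and the exact upper limit is 2.17%) and 4 of 248 in the resistant library, too few to describe. The last was called resistant from its title and sensitivity label, while its source label says sensitive.

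Of the 4 markers given for these cells, Pi16 and Dcn were used to choose them and Clec3b and Mfap5 were not. Pi16 was at 2799 CPM in sensitive and 2720 in resistant cells. Clec3b, which encodes the plasminogen-binding lectin tetranectin, was at 4057 and 3921 CPM and was found in 96.9% and 98.2% of cells. Mfap5, a microfibril component, was at 2105 and 2915 CPM, and Dcn, the small proteoglycan decorin, at 8365 and 8032. Thus 3 of the 4 markers were within 1.05-fold of each other in the 2 libraries, and Mfap5 was lower in the sensitive library at a ratio of 0.722 (0.708 to 0.736).

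The labels call both libraries tumor residing T cells, and the Pi16+ fibroblasts carried little of that identity. The 7 T cell markers summed to 18.2 and 28.4 CPM in them, against 4782 and 4608 in cells with Ptprc or Epcam, and 7.33% and 7.41% of them had any such UMI. The 7 macrophage markers summed to 21.1 and 41.4, the 5 neutrophil markers to 5.11 and 71.8, the 8 epithelial markers to 14.3 and 9.11 and the 6 endothelial markers to 10.1 and 14.8 CPM. Pericyte markers summed to 60.1 and 116, most of it Kcnj8 and Abcc9. Of 6 mesothelial markers only Wt1 and Upk1b had UMIs (Upk1b only in sensitive cells), with Msln, Upk3b, Lrrn4 and Muc16 at 0 in both libraries. Skeletal muscle markers summed to 0.999 and 1.10 CPM. Adipocyte markers summed to 3 UMIs and B cell markers to 1 UMI over all 1154 cells. The neutrophil, macrophage and pericyte lists thus differed between the libraries. S100a8, S100a9, Lyz2 and Kcnj8 among the genes below are members of these lists, and the part of other cells in those differences was not tested.

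**Figure D1:**
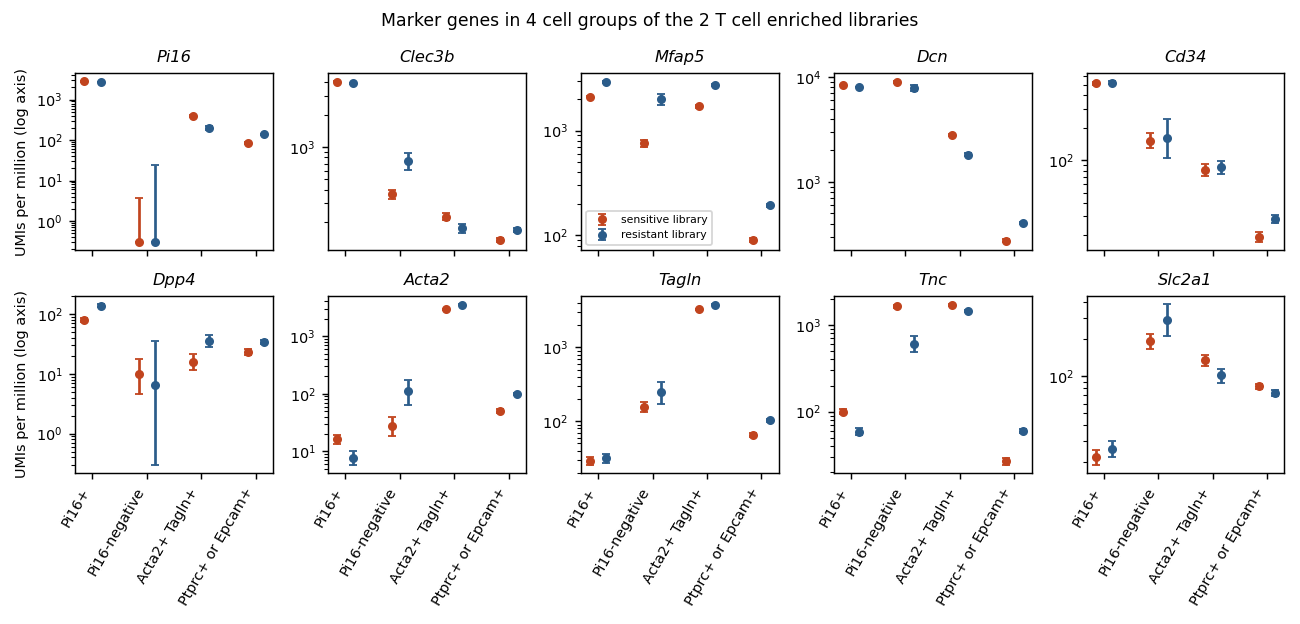
Levels of 10 genes, in CPM on a log axis with exact 95% Poisson intervals, in Pi16+ fibroblasts, Pi16-negative non-contractile fibroblasts, contractile (Acta2+ Tagln+) fibroblasts and cells with a Ptprc or Epcam UMI, for the sensitive (red) and resistant (blue) library. Pi16, Dcn, Acta2 and Tagln were used to choose the cells and a level of 0 is drawn at 0.3. Clec3b, Cd34 and Dpp4 are highest in Pi16+ fibroblasts and Tnc and Slc2a1 are lowest there among the 3 fibroblast groups.

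What the cells shared beyond the rule was first described against the fibroblasts that met all other conditions and had no Pi16 UMI. The sensitive library had 69 such cells (1024810 UMIs in all, median 8104) and the resistant one 12 (155017 in all, median 12284), so the resistant values rest on few cells. Of 6583 genes with at least 100 UMIs in each library and no part in the rule, 210 (3.19%) had at least 2-fold higher levels in Pi16+ fibroblasts in both libraries and 114 (1.73%) at least 2-fold lower ones. In 51 of the 210 a Pi16-negative group had 0 UMIs, and with such genes put at their bound from a floor of 3 counts 170 were past 2-fold. The median ratio over all these genes was 1.01 in both libraries.

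The list of adventitial fibroblast genes stood with Pi16. Of its 21 members 14 were at least 2-fold higher in Pi16+ cells in both libraries, against 3.19% of all genes, and none was lower, with median ratios of 3.29 (sensitive library) and 3.62 (resistant library). Clec3b was 11.3-fold (10.2 to 12.5) and 5.33-fold (4.44 to 6.47) higher. Dpp4, a surface peptidase that marks the progenitor-like pool, was at 78.7 against 9.76 CPM in the sensitive library and at 139 against 6.45 in the resistant library, the latter from 1 UMI. Cd34, a sialomucin of progenitor cells, was 3.41-fold and 3.24-fold higher, and Ly6c1 4.74-fold and 3.33-fold. Mfap5 was 2.79-fold and 1.47-fold higher, short of the 2-fold rule in the resistant library.

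By the rule for naming genes, 12 led the higher side. Mrgprg, an orphan receptor of the Mrgpr family, was at 127 CPM in Pi16+ and 1.95 in Pi16-negative cells of the sensitive library, and at 93.8 and 0 in the resistant library, where it was at least 4.85-fold higher against a floor of 3 counts. Akr1c18, a steroid dehydrogenase that inactivates progesterone, was at 37.6 against 0 CPM (at least 12.9-fold) in the sensitive library and 98.4 against 6.45 in the resistant one. Aldh1a3, which makes retinoic acid, was 14.9-fold (6.37 to 46.2) and 17.4-fold (3.12 to 689) higher. Cd55, which shields cells from complement, was 9.18-fold and 8.63-fold higher. These sizes depend on how cells are weighted. As means over cells the sensitive ratios of Mrgprg and Aldh1a3 were 8.85 and 6.86, and after thinning to 3000 UMIs those of Cd55 were 4.19 and 2.18. Efhd1 was at 28.2 and 46.8 CPM in Pi16+ cells and at 0 in both groups of Pi16-negative cells, at least 9.63-fold and 2.42-fold higher. The others were Car8, Duox2, Plac9b, Smpd3, Ackr1, Ackr2 and Wfikkn2. Each had 0 UMIs in the 12 resistant Pi16-negative cells, where the floor of 3 counts gives lower bounds of 0.820 to 1.38 only, too low to show a 2-fold difference, and their sensitive levels were 11.9 to 37.1 CPM in Pi16+ cells.

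On the lower side stood genes of the hypoxia and glycolysis list and of the activated fibroblast list. Of 16 hypoxia and glycolysis genes 11 were at least 2-fold lower in Pi16+ cells in both libraries, against 1.73% of all genes, and none was higher, with medians of 0.379 and 0.389. Slc2a1, the glucose transporter GLUT1, was at 22.0 against 194 CPM in the sensitive library and 25.8 against 290 in the resistant library. The glycolytic enzymes Pgk1 and Gapdh were at ratios of 0.256 and 0.312 in sensitive and of 0.309 and 0.301 in resistant cells. Of 11 activated fibroblast genes 5 were lower and none higher, among them Tnc, the matrix protein tenascin C, at 99.7 against 1622 CPM and 59.1 against 606. The resistant ratio of Tnc moved from 0.0974 to 0.334 with a mitochondrial limit of 5%. Inhba, the activin A subunit, was at 24.1 against 935 and 10.3 against 206 CPM. With 75 UMIs in Pi16+ cells of the resistant library, Inhba had enough there only through the 32 of Pi16-negative cells. The count of 5 is therefore a description only. Mmp10, a stromelysin, had 3 and 1 UMIs in Pi16+ cells against 339 and 152, but the latter lay in 11.6% of 69 and 16.7% of 12 cells, and the gene had enough UMIs only through them. The other named genes, Ero1l, Igfbp3, Fosl1 and Glrx, had ratios between 0.0516 and 0.111. Igfbp3, with 94 resistant UMIs in Pi16+ and 39 in Pi16-negative cells, also had enough there only through the latter. On the other side, 3 of 9 complement genes were higher, against 3.19% of all genes, and none lower, with C3 at 3.26-fold and 3.29-fold, and Cxcl12 was 2.45-fold and 2.05-fold higher. Markers of other cells also differed. Epithelial markers summed to 164 and 142 CPM in Pi16-negative cells against 14.3 and 9.11 in Pi16+ cells, endothelial markers to 146 and 32.3 against 10.1 and 14.8 and pericyte markers to 117 and 284 against 60.1 and 116. Macrophage markers summed to 16.6 and 12.9 against 21.1 and 41.4, while 2 of 3 class II antigen presentation genes, H2-Ab1 and Cd74, were past 2-fold lower in Pi16+ cells. Their part in these differences was not tested.

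More genes were past 2-fold against contractile fibroblasts, of which the sensitive library had 85 and the resistant one 63. Of 7354 genes 436 (5.93%) were at least 2-fold higher in Pi16+ fibroblasts in both libraries and 261 (3.55%) at least 2-fold lower. This comparison was added after the data had been seen. Contractile cells were deeper, with medians of 29067 and 33796 UMIs, and 45 and 49 of them had a Pi16 UMI.

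Of the 21 adventitial genes 16 were at least 2-fold higher in Pi16+ cells, against 5.93% of all genes, and 6 of 10 complement genes were too, while the complement inhibitor Cd59a was lower, with C3 at 4.01-fold and 5.52-fold and C4b at 5.59-fold and 4.90-fold. Sfrp4, a secreted Wnt antagonist, was at 496 against 10.3 CPM in sensitive and 693 against 10.6 in resistant cells. Lpl, lipoprotein lipase, was 9.056-fold and 9.002-fold higher, and Cxcl12 4.07-fold and 4.87-fold. Mrgprg, Duox2 and Smpd3 had 0 UMIs in contractile cells of both libraries, against 127 and 93.8 CPM for Mrgprg in Pi16+ cells. Mfap5, in contrast to the other markers, was alike in the 2 cell groups, at 1.23-fold and 1.07-fold.

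The genes lower in Pi16+ than in contractile fibroblasts included genes of the contractile apparatus and of TGF-beta signalling. Of 13 activated and contractile fibroblast genes 10 were at least 2-fold lower, against 3.55% of all genes, and none higher. Cnn1, the smooth muscle protein calponin, had 1 and 0 UMIs in Pi16+ cells and 175 and 187 in contractile ones, and Actg2, enteric smooth muscle actin, had 7 and 2 against 364 and 189. Myl9, the regulatory myosin light chain, was at 12.8 against 285 CPM and 8.83 against 234. Cnn1 in both libraries, and Myl9 and Inhba in the resistant one, had enough UMIs only through contractile cells. Nothing is therefore read from the count of 10. Of 11 genes of the TGF-beta list 6 were lower, among them Ccn2 at 0.1003 and 0.1293 and the ligand Tgfb1 at 0.179 and 0.170, while the receptors Tgfbr2 and Tgfbr3 were at 3.18-fold to 5.86-fold higher. Ube2c, which drives mitotic exit, was at 0.888 against 93.1 and 4.55 against 88.9 CPM. Only 7 of 16 cell cycle genes had enough UMIs, and as genes such as Ube2c had them through the contractile cells, no count is read from that list. Acta2 and Tagln themselves chose the groups. Both comparisons rest on which fibroblasts had Pi16 or contractile transcripts, so they describe how the groups differ and test nothing.

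Sensitive and resistant libraries were then compared within Pi16+ fibroblasts. Of 9034 genes with at least 100 UMIs over both, 163 (1.8%) were at least 2-fold higher in the sensitive library and 57 (0.631%) at least 2-fold lower, 2.44% in either direction. The median ratio over all genes was 1.06. For 80 of the higher and 30 of the lower genes the counting interval lay beyond 2-fold, and 116 and 42 were also past 2-fold as a mean over cells that gives each cell the same weight. In 6 higher and 9 lower genes a single cell held over 25% of the UMIs. After scaling by the median ratio the counts were 136 and 73.

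**Figure D2:**
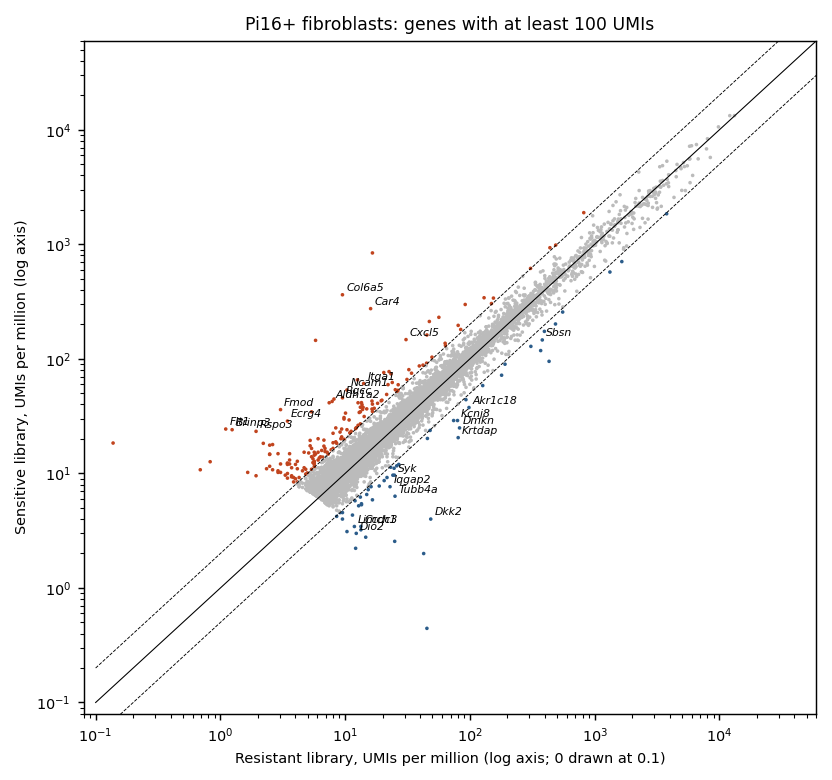
Level of each of 9034 genes in Pi16+ fibroblasts of the resistant (x axis) and sensitive (y axis) library, in CPM on log axes. Dashed lines mark 2-fold, red points are the 163 genes higher and blue points the 57 genes lower in the sensitive library, and the 24 genes named by rule are labelled. Col6a5 and Car4 lie far above the line at 363 against 9.52 and 275 against 16.0 CPM.

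The highest ratio among the genes named by rule was that of Col6a5, which encodes the alpha 5 chain of collagen VI (chr9:105856078-105960643, minus strand, mm10/GRCm38). It had 3271 UMIs in sensitive and 69 in resistant cells, 363 and 9.52 CPM, a ratio of 38.1 (30.1 to 49.1). It was found in 56.3% of Pi16+ fibroblasts of the sensitive and 6.61% of those of the resistant library, and in 37.0% and 3.51% after thinning, and no single cell held over 3.79% of its UMIs in the sensitive library. The gap was thus spread over many cells. The neighboring Col6a6 (chr9:105687809-105828160, minus strand), looked up after Col6a5 had been seen, was at 15.3 and 4.69 CPM. Col6a1 and Col6a2, which form the core of collagen VI with Col6a3, were at 935 against 438 and 986 against 488 CPM, ratios of 2.13 and 2.02, and Col6a3 was at a ratio of 1.52. Over the 11 measured non-fibrillar collagens of a list that did not hold Col6a5 the median ratio was 1.33, with Col6a1 and Col6a2 the 2 of 11 past 2-fold, and over the 7 fibrillar collagens it was 1.24 with 1 of 7, Col11a1, which had 166 against 1 UMIs. Over all genes 1.8% were past 2-fold higher.

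Car4, a membrane-bound carbonic anhydrase, had 2475 and 116 UMIs (275 and 16.0 CPM, ratio 17.2, interval 14.2 to 20.9). In cells thinned to 3000 UMIs, 36.2% of 224 Col6a5 cells of the sensitive library also had Car4, against 21.5% of the 381 cells without Col6a5. Either gene was found in 50.6% of 605 thinned cells of the sensitive library (46.5 to 54.6%) and in 5.58% of 484 of the resistant library (3.71 to 8.01%).

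The other named genes on the higher side were at lower levels. Rspo3, a secreted amplifier of Wnt signalling, had 210 UMIs in sensitive and 14 in resistant cells, a ratio of 12.1 (7.03 to 22.5). Fmod, the collagen-binding proteoglycan fibromodulin, had 325 and 22 UMIs, a ratio of 11.9 that was 7.33 after thinning. Aldh1a2, which makes retinoic acid, had 383 and 57, a ratio of 5.41. Flt1, a receptor for vascular endothelial growth factor, had 220 and 8, and Brinp3 had 217 and 9, ratios of 22.1 and 19.4. Itga1, the alpha 1 chain of a collagen receptor, was the most widespread of this group and was found in 30.1% and 14.6% of cells at a ratio of 4.33. Ecrg4, Ncam1 and Rgcc had ratios of 8.30, 5.17 and 4.804. Among these, Flt1 was found in 11.0% of sensitive cells and Fmod in 10.1%, so most cells had none. Across the alternatives, bands of Cxcl12 included, the ratios ran from 2.38 to 31.0 for Fmod, from 2.56 to 30.0 for Aldh1a2, from 8.32 to 22.6 for Flt1 and from 2.33 to 13.6 for Rgcc, all above 1.

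On the lower side Dkk2, a secreted modulator of Wnt receptors, had the lowest ratio among the genes named by rule. It had 36 UMIs in sensitive and 352 in resistant cells, 4.00 and 48.6 CPM, a ratio of 0.0823 (0.0567 to 0.116), and 38.9% of the few sensitive UMIs lay in 1 cell. As a mean over cells the ratio was 0.180. It was found in 2.60% and 19.2% of cells. Kcnj8, a subunit of ATP-sensitive potassium channels and also a pericyte marker, was at 29.0 and 79.6 CPM, and Akr1c18 at 37.6 and 98.4. Dio2, which activates thyroid hormone, Tubb4a, Ccdc3, Limch1, Iqgap2 and Syk were at 2.997 to 9.66 CPM in sensitive and 11.9 to 25.1 in resistant cells, with ratios between 0.244 and 0.389. The ratio of Dio2 was 0.415 as a mean over cells and 0.139 after thinning.

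Sbsn, Dmkn and Krtdap form a short stretch of chromosome 7 (chr7:30751471-30756134, chr7:30763756-30781063 and chr7:30787896-30791097, all plus strand) and encode small secreted proteins best known from differentiating epidermis. All 3 were named by the rule and all 3 were lower in the sensitive library. Sbsn, suprabasin, had 1319 UMIs in sensitive and 2759 in resistant cells, 146 and 381 CPM, a ratio of 0.385 (0.360 to 0.411), and was found in 43.1% and 74.7% of Pi16+ fibroblasts. Dmkn, dermokine, was at 24.98 and 82.7 CPM in 10.1% and 32.3% of cells. Krtdap was at 20.5 and 80.6 CPM in 5.95% and 23.2% of cells. Epithelial cells can also express them. The 8 epithelial markers, such as Krt8 and Krt18, summed to 14.3 and 9.11 CPM in the same cells, markers of keratinocytes were not listed, and the part of epithelial RNA in these differences was not tested.

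The same contrast in other cells of the 2 libraries showed which differences were shared. Of 120 genes past 2-fold in Pi16+ fibroblasts that had at least 100 UMIs in contractile fibroblasts, 48 were past 2-fold in the same direction there (38 of 94 higher and 10 of 26 lower) and 7 in the opposite direction. Over all 5239 genes with enough UMIs in both cell groups, 2.23% were past 2-fold higher and 0.611% lower in contractile fibroblasts. Col6a5 and Car4 had ratios of 25 and 25.1 in contractile fibroblasts, Flt1 18.5, Aldh1a2 8.37 and Dkk2 0.0750. Fmod, at 0.881, and Ncam1, at 1.38, were near 1 there. In cells with Ptprc or Epcam Col6a5 was 9.62-fold and Cxcl5 11.2-fold higher in the sensitive library, while Car4 was at 1.61 and Sbsn at 0.967. Whether a difference was larger in 1 cell group than in another was not tested.

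**Figure D3:**
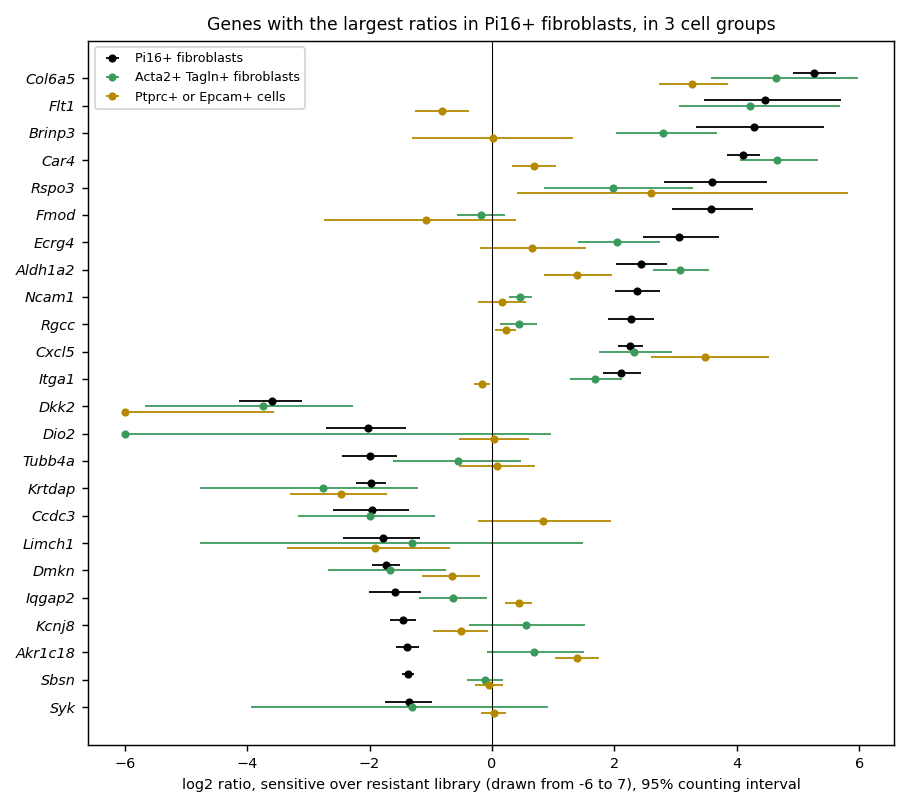
Ratio of the sensitive over the resistant library, on a log2 axis with exact 95% counting intervals, for the 24 genes named by rule, in Pi16+ fibroblasts (black), contractile fibroblasts (green) and cells with Ptprc or Epcam (yellow). The 12 upper genes were chosen as higher and the 12 lower genes as lower in Pi16+ fibroblasts. The Col6a5, Car4 and Dkk2 ratios in contractile fibroblasts are 25, 25.1 and 0.0750.

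Chemokines were the list with the highest median ratio among the 31 pathway lists. Of 14 measured members 5 were at least 2-fold higher in the sensitive library, against 1.8% of all genes, and none lower, with a median of 1.86 against 1.06 over all genes, and 13 of 14 were above 1, against 64.5% of all genes. Cxcl12, which retains and attracts CXCR4-bearing lymphocytes, had 17046 UMIs in sensitive and 5934 in resistant cells, 1892 and 819 CPM, a ratio of 2.31 (2.24 to 2.38), and was found in 92.7% and 78.6% of cells. Its level per cell was widely spread, with a median over cells of 9.88 per 10000 UMIs in sensitive and 2.57 in resistant cells and maxima of 183 and 112. Cxcl13, a B cell attractant, had 402 and 59 UMIs at a ratio of 5.48, and Ccl19, a ligand of CCR7, 374 and 98 at 3.07. Cxcl10, an interferon-induced ligand of CXCR3, had 596 and 227 UMIs at 2.11, but was found in 7.33% and 10.8% of cells. In Cxcl13 and Cxcl10 a single sensitive cell held 21.6% and 22.7% of the UMIs, and the Cxcl13 ratio was 2.95 after thinning. In cells with 0 Cxcl12 UMIs the Cxcl13 and Cxcl10 ratios turned to 0.348 and 0.981. Cxcl5, a neutrophil attractant, had 1328 and 223 UMIs at 4.79 in 16.8% and 6.61% of cells, 29.6% of its resistant UMIs lay in 1 cell, and the ratio was 2.77 as a mean over cells. Cxcl14 was at 1778 and 964 CPM and Ccl11 at 2188 and 1404. Ccl2, the monocyte attractant, was the exception at 1137 and 1419 CPM, a ratio of 0.802. Within bands of Cxcl12 this did not hold, as its ratio was 0.706 with 0 Cxcl12 UMIs, 1.02 with 1 to 5 and 1.33 with 6 or more.

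Because the study centred on IL-17A, its receptor and targets were listed apart. None of 5 measured receptor and signal genes was past 2-fold, with a median of 1.20. Il17ra was at 58.4 and 45.3 CPM, a ratio of 1.29 (1.12 to 1.49), and Il17rc at 44.5 and 41.5. Of 11 target genes, which overlap the chemokine list, only Cxcl5 was past 2-fold higher, against 1.8% of all genes, with a median of 1.35. The Cxcl5 ratio was 1.62 in cells with 1 to 5 Cxcl12 UMIs, short of 2-fold, and 7.74 and 12.6 with 0 and with 6 or more. Saa3, an acute phase apolipoprotein, was at 5324 and 3795 CPM and was found in 43.2% and 43.3% of cells. Within bands of Cxcl12 its ratio turned to 0.713 and 0.607 in cells with 0 and with 1 to 5 Cxcl12 UMIs and was 1.26 in those with 6 or more. Cxcl1 was at 746 and 493 CPM, and Lcn2 went the other way at 33.1 and 49.8.

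Interferon-stimulated genes had a median ratio below 1. The median of 18 measured genes was 0.799, 6 were above 1, against 64.5% of all genes, and 1 was past 2-fold lower, against 0.631% of all genes. That was Ifi27l2a, at 707 and 1653 CPM, a ratio of 0.428 (0.415 to 0.441). Irf7, a regulator of interferon transcription, was at 79.0 and 153 CPM and Isg15 at 262 and 412. Iigp1 was at 209 and 159 CPM. The 9 class I antigen presentation genes were all between 1.06 and 1.38.

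None of the adventitial genes, which set Pi16+ cells apart from other fibroblasts, was past 2-fold between the libraries, close to the 2.44% of all genes. Of 21, 5 were above 1, against 64.5% of all genes, and the median was 0.825. Dpp4 was at 78.7 and 139 CPM, a ratio of 0.566 (0.514 to 0.624), in 46.6% and 66.7% of cells. Anxa3 was at 0.582 and Sema3c, a secreted semaphorin, at 0.606. Cd34, Ly6c1 and Clec3b were between 0.987 and 1.03. Of 11 Wnt genes 3 were past 2-fold higher (Rspo3, Wnt5a and Ccn4), against 1.8% of all genes, and 2 lower (Dkk2 and the ligand Wnt2), against 0.631%. Wnt2 was at 72.0 and 180 CPM, and Sfrp2, a Wnt antagonist of fibroblasts, was at 1544 and 2538. The Wnt2 ratio was 0.688, 0.568 and 2.89 with 0, 1 to 5 and 6 or more Cxcl12 UMIs. With 6 or more, Dpp4, Sema3c and Anxa3 also turned, to 1.18, 1.46 and 1.04.

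DOX damages DNA, and p53 drives much of the response to such damage. None of 19 p53 targets was past 2-fold, close to the 2.44% of all genes, the median was 1.00, and Cdkn1a, the cell cycle inhibitor p21, was at 726 and 905 CPM, a ratio of 0.802. The 5 Pi16+ fibroblasts of the untreated whole tumor are too few to say whether these levels are raised. The metallothioneins Mt1 and Mt2 were at ratios of 0.678 and 0.698, with Mt1 at 5742 and 8466 CPM. Of 17 immediate early genes, which rise during tissue dissociation, none was past 2-fold and the median was 1.13. Hypoxia and glycolysis genes had a median of 1.08 with none of 17 past 2-fold. Only 3 of 16 cell cycle genes had enough UMIs to be compared. Among growth factors Pdgfrl was at 162 and 45.3 CPM, a ratio of 3.57, while Igfbp5 was at 202 and 486, a ratio of 0.415, and in contractile fibroblasts went the other way. In the proteoglycan list Prg4, the lubricant lubricin, was at 257 and 555 CPM, a ratio of 0.462, while Dcn and Lum were at 1.04 and 1.11.

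Other signalling and matrix lists had few members past 2-fold, and over all genes 1.8% were higher and 0.631% lower. Of 12 TGF-beta genes 3 were higher in the sensitive library and none lower, with Tgfbi, a matrix protein induced by TGF-beta, at 34.5 and 5.38 CPM, the latent TGF-beta binding protein Ltbp2 at 62.3 and 23.9 and the ligand Tgfb3 at 22.6 and 10.9, and a list median of 1.02. Of 14 activated and contractile fibroblast genes 3 were higher, namely Acta2, Inhba and Spp1, and in Inhba 1 resistant cell held 37.3% of the UMIs. Acta2 was capped by the rule in cells with Tagln and was at 16.1 and 7.73 CPM, so its place in the count of 3 is a description only. Among cytokines Il15, which sustains T and NK cells, was at 12.3 and 3.45 CPM and Tslp, an alarmin of barrier tissues, at 4.00 and 9.52, while the alarmin Il33 was at 340 and 204 and was found in 74.8% and 72.7% of cells. Of 11 complement genes Masp1, a protease of the lectin pathway, and Cd59a, an inhibitor of the membrane attack complex, were past 2-fold at 3.14 and 3.08, and C3 was at 4763 and 3329 CPM. Bmp7 was the only 1 of 9 BMP genes past 2-fold, at 5.44 and 13.5 CPM. None of 16 collagen processing genes, 9 heat shock genes and 11 fibroblast transcription factors was past 2-fold.

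**Figure D4:**
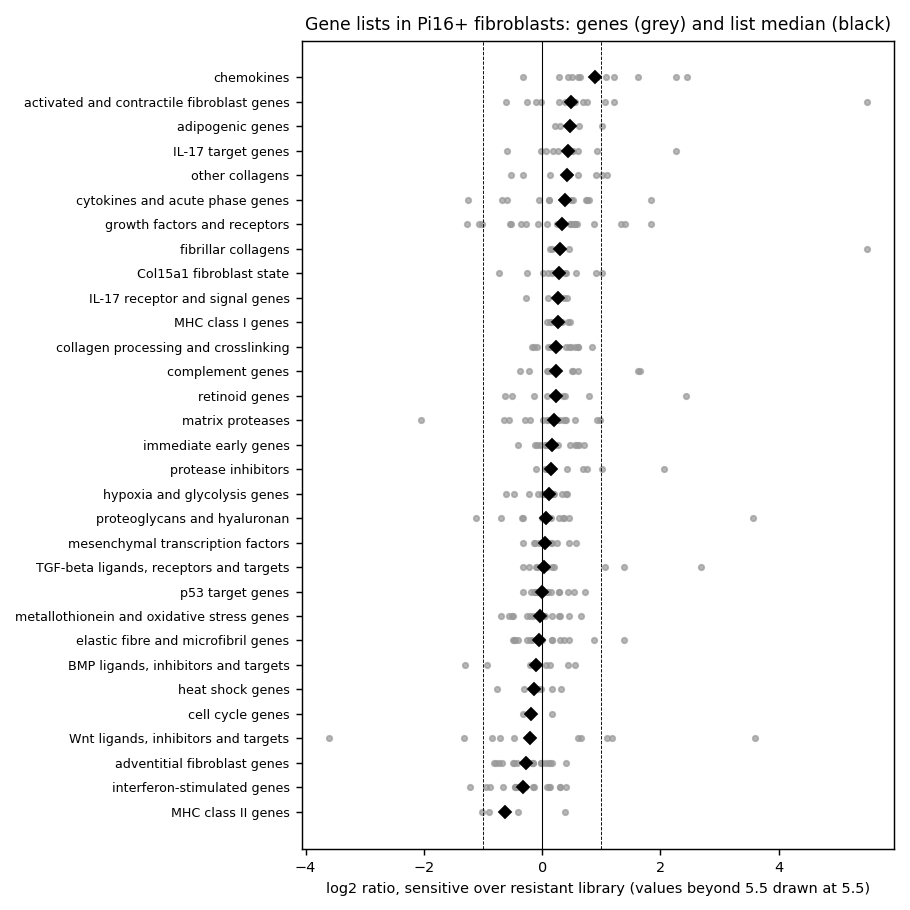
Ratio of the sensitive over the resistant library in Pi16+ fibroblasts, on a log2 axis, for the genes of 31 pathway lists (grey) and the median of each list (black diamond), with dashed lines at 2-fold. Chemokines have the highest median at 1.86 and class II antigen presentation genes, with 4 measured, the lowest at 0.647.

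Some genes past 2-fold stood outside the naming rule because few cells or other cells carried them, and these were looked at after their values had been seen. Spp1, osteopontin, had 7586 UMIs in sensitive and 120 in resistant cells, but was found in 13.4% and 5.21% of cells and 21.8% of the sensitive UMIs lay in 1 cell. In Thbs4 1 cell held 55.7% of 1308 UMIs. Col11a1 had 166 and 1 UMIs in 7.94% and 0.200% of cells. S100a8 and S100a9, neutrophil genes, had 23 and 18 UMIs in sensitive and 181 and 309 in resistant cells, and Mmp12 had 4 and 328 with 96.0% of the latter in 1 cell. The mitochondrial transcripts mt-Atp8 and mt-Nd3 were at ratios of 0.221 and 0.320 in Pi16+ fibroblasts and at 0.229 and 0.298 in cells with Ptprc or Epcam.

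Within each library Pi16+ fibroblasts were graded by Pi16. Cells were put in bands of 0, 1 to 3, 4 to 9 and 10 or more Pi16 UMIs after thinning to 3000, which held 50, 128, 203 and 224 sensitive and 24, 132, 160 and 168 resistant cells. Clec3b went from 888 to 2368, 4602 and 5872 CPM across the bands in the sensitive library and from 1717 to 2682, 3944 and 5560 in the resistant library. Dpp4 went from 48.0 to 97.5 and from 90.4 to 188 CPM between the end bands. Tnc ran the other way, from 185 to 54.2 and from 276 to 13.4, and Slc2a1 from 60.02 to 9.52 and from 74.1 to 22.9. Pi16 itself chose these cells and sets the bands, so this is a description. The cells of the band of 0 had lost all their Pi16 UMIs in thinning and were deeper before it, with medians of 18581 and 15932 UMIs against 12744.5 and 11984 in the band of 10 or more. Cxcl12 was at 1369, 2474, 1800.4 and 1795 CPM across the bands in the sensitive library and at 714, 726, 853 and 906 in the resistant one.

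Another group of genes varied with Cxcl12, whose own correlation with Pi16 was -0.03 in both libraries. In cells thinned to 3000 UMIs (605 and 484), Pearson correlations of log counts joined Cxcl12 with Cxcl14 (r = 0.45 in sensitive and 0.52 in resistant cells), with Lpl (0.43 and 0.50) and with Saa3 (0.43 and 0.37). Against these stood Anxa3 (r = -0.40 and -0.33 with Cxcl12), Sbsn (-0.38 and -0.37) and Sema3c (-0.37 and -0.30). Sbsn went with Anxa3 (0.35 and 0.37), Sema3c (0.34 and 0.37), Dmkn (0.44 and 0.40) and Krtdap (0.40 and 0.43). Pi16 and Clec3b went together (0.56 and 0.52), and some of these genes also varied with Pi16, such as Sema3c (0.21 and 0.29) and Anxa3 (0.13 and 0.32). Cells of a library share their source and preparation, so these values describe the cells and carry no p.

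Cells were also put in bands by Cxcl12, a choice made after the data had been seen. With 0, 1 to 5 and 6 or more Cxcl12 UMIs after thinning there were 96, 307 and 202 cells in the sensitive library (15.9, 50.7 and 33.4%) and 208, 207 and 69 in the resistant library (43.0, 42.8 and 14.3%). Across these bands Cxcl14 went from 221 to 983 and 3481 CPM in sensitive and from 310 to 793 and 3549 in resistant cells, and Lpl from 215 to 993 and from 82.8 to 1013 between the end bands. Sema3c went down from 327 to 161 and 52.1 and from 329 to 216 and 35.8. Krtdap went from 105 to 0.605 and from 129 to 2.98, and Mrgprg from 443 to 3.63 and from 147 to 2.98, between the end bands. Pi16 stayed between 2751 and 2813 in sensitive and between 2625 and 3133 in resistant cells.

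**Figure D5:**
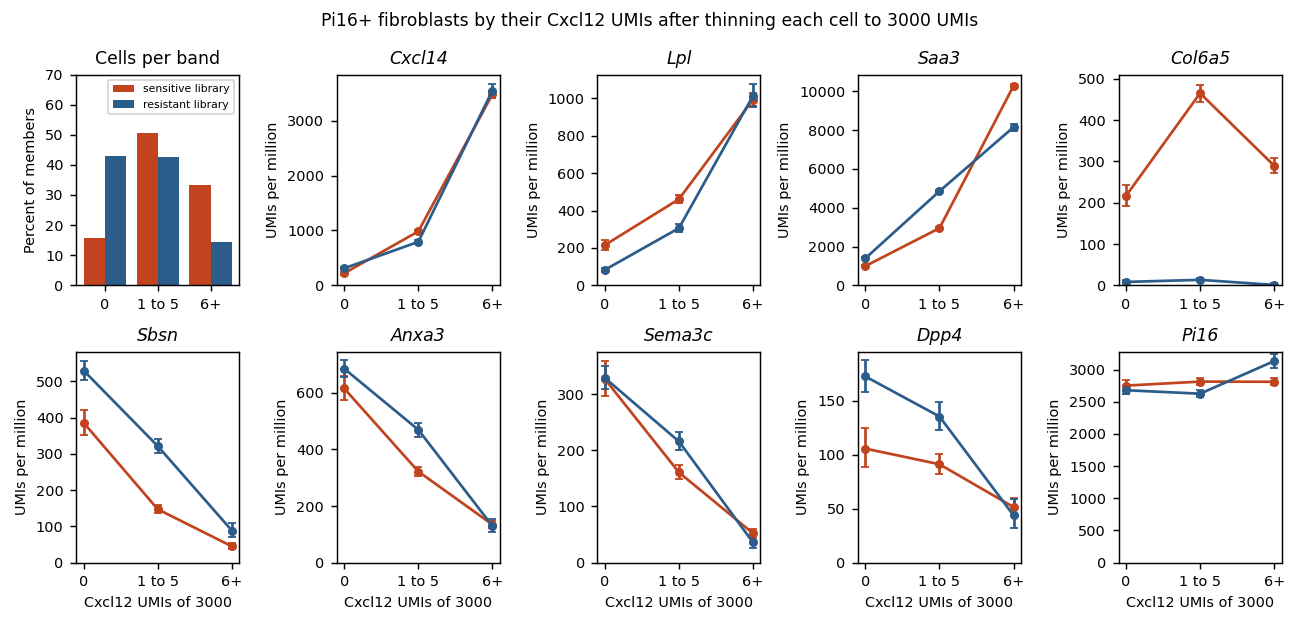
Share of Pi16+ fibroblasts (first panel, percent of 605 and 484 cells) and levels of 9 genes in CPM, with exact 95% Poisson intervals, by the number of Cxcl12 UMIs after thinning each cell to 3000 UMIs, for the sensitive (red) and resistant (blue) library. Cxcl14, Lpl and Saa3 increase across the bands and Sbsn, Anxa3, Sema3c and Dpp4 decrease in both libraries. Col6a5 is at 217, 465 and 290 CPM in the sensitive library and at most 13.4 in the resistant library.

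The ratios between the libraries were also taken within each band, in the order of 0, 1 to 5 and 6 or more Cxcl12 UMIs. Col6a5 had ratios of 26.2 and 34.8 in the bands of 0 and 1 to 5 Cxcl12 UMIs and 957 UMIs against 1 in the band of 6 or more (ratio 291, interval 52.2 to 11524), with Car4, at 17.2 over all cells, at 40.7, 11.8 and 25.4. Col6a1 was at 2.04, 2.18 and 1.82, Prg4 at 0.350, 0.360 and 0.437, and C3 at 1.36, 1.25 and 1.26. Cxcl14, at 1.84 over all cells, was at 0.712, 1.24 and 0.981 within the bands. Lpl, at 2.01 over all cells, was at 2.60, 1.51 and 0.981. Sema3c, at 0.606 over all cells, was at 0.994, 0.745 and 1.46, so that it turned direction in the last band, and Anxa3 at 0.898, 0.686 and 1.04. Sbsn stayed lower in each band at 0.728, 0.458 and 0.506, and Ifi27l2a at 0.462, 0.489 and 0.804. Krtdap was at 0.812 and 0.159 and Dmkn at 0.586 and 0.434 in the bands of 0 and 1 to 5. In the band of 6 or more Krtdap and Dmkn had at most 3 UMIs per library. Since the bands are cut from a count that itself differed between the libraries, these values are a description.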

How the data were processed

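Droplet reads were aligned and counted by the authors with Cell Ranger (6.0.0 for the T cell libraries, genome build mm10), and they deposited UMI counts per gene and barcode without normalization. Here barcodes were filtered and gated as stated, UMIs were summed per library and cell group as counts per 1000000 (CPM), and ratios of sums had exact conditional binomial intervals, shares Clopper-Pearson intervals, ratios of shares delta-method intervals and levels exact Poisson intervals (Python 3.11.15, numpy 2.4.6, scipy 1.17.1). PCR duplicates are removed by UMIs, and intervals cover counting error only. With 1 library per group there was no test, and a gene was called at 2-fold or more with at least 100 UMIs. The T cell libraries listed 32285 features.

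Genes were named by rule. Between libraries these were the 12 highest and 12 lowest ratios among called genes found in at least 10% of cells of the higher library and at least as high there as in cells with Ptprc or Epcam. Between Pi16+ and Pi16-negative cells these were the 12 highest and 8 lowest by the smaller of the 2 log2 ratios, and against contractile cells 8 and 8. For 31 pathway lists and 14 marker lists counts and medians are given. The members, lists and rules were chosen with earlier results of these data known. For a count of 0 the floor was 3 counts over the cell group. No doublets were removed. As an alternative the barcodes with the highest Scrublet scores (scanpy 1.11.5) were left out, 101 and 84, of which 10 and 6 were Pi16+ fibroblasts. Positions are from GENCODE M21 on GRCm38. The calling and thinning steps were tested on simulated data. The whole-tumor libraries were used only to count cells.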

Additional observations from a re-analysis of the deposited data

Results flagged for a closer look

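With 1 library per group no sample could be compared with others of its group. Between the libraries, 7 genes past 2-fold in Pi16+ fibroblasts were past 2-fold in the opposite direction in contractile fibroblasts, and the difference between the cell groups was not tested. Igfbp5, which binds insulin-like growth factors, had 1818 sensitive and 3521 resistant UMIs in Pi16+ cells (ratio 0.415), and 143 and 9 in contractile cells, a ratio of 12.8. In Pi16+ cells with 0 and with 6 or more Cxcl12 UMIs its ratio was 1.06 and 1.83, so the opposite direction did not hold in these bands. Col11a1, a minor fibrillar collagen, had 166 and 1 UMIs in Pi16+ cells, and 46 and 110 in contractile cells, a ratio of 0.337. H19, an imprinted noncoding RNA, was at 2.21 in Pi16+ and 0.424 in contractile cells, and Rasl11b at 2.22 and 0.426. Lyz2, H2-Eb1 and Mmp9, which macrophages also express, were at 0.440, 0.493 and 0.241 in Pi16+ cells and at 6.74, 20.7 and 6.35 in contractile cells, where the 7 macrophage markers summed to 169 and 29.2 CPM. In Mmp9 1 cell held 81.4% of the resistant UMIs of Pi16+ cells.

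Among barcodes not used because of their mitochondrial share, 7 from the sensitive library and 45 from the resistant one met the rest of the rule. They were 1.06% (exact interval 0.426 to 2.17%) and 8.27% (6.10 to 10.9%) of all barcodes that did. Their median depth was 1116 and 3467 UMIs, with a median of 4 and 6 Pi16 UMIs.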

How the results depend on the processing

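No paired analysis was possible because each group is 1 library. The share of kept barcodes that were Pi16+ fibroblasts reversed its order with a mitochondrial limit of 5% (ratio 0.830) and rose to 1.48 with a limit of 20%, since the limit removes more barcodes of the resistant library, and kept its direction under the other 4 alternatives. The thinned Pi16 share stayed lower in the sensitive library under all 8 alternatives. Counts of genes past 2-fold stayed within 1.5 times of the reported ones under the cell filters, doublet removal, cell means and median scaling. They moved with the minimum of UMIs per gene, which changes how many genes are compared. At 20 UMIs they were 435 higher and 203 lower between the libraries, 492 and 299 against Pi16-negative and 747 and 519 against contractile cells. At 500 UMIs they were 44 and 21, 84 and 25, and 190 and 94. With cells thinned to 3000 UMIs they were 44 and 22, 89 and 23, and 190 and 73. Single gene ratios were tallied for genes named by rule between the libraries or against Pi16-negative cells, and for some further genes. Of these ratios under all alternatives 665 stayed within 1.5 times, 79 moved without a change of direction and 10 reversed. They reversed only within Cxcl12 bands, added after seeing the data. With 0 Cxcl12 UMIs Cxcl13 was at 0.348, Cxcl10 at 0.981, Igfbp3 at 0.979 and Igfbp5 at 1.06. With 6 or more Igfbp5 was at 1.83, Akr1c18 at 2.06, Dpp4 at 1.18, Sema3c at 1.46, Wnt2 at 2.89 and Il17ra at 0.998. Other ratios given above but not in this tally, such as those of Saa3, Cxcl14, Lpl, Anxa3 and Ccl2, also turned direction within bands. Genes of few UMIs are limited by depth.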
